A study of Mus musculus with 6 samples.

Results

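Immediate early transcription factors were followed in the lungs of leptin-deficient mice given leptin or saline. The group held 10 genes, Egr1, Egr2, Egr3, Fos, Fosb, Jun, Junb, Atf3, Ier2 and Nr4a1, chosen by symbol out of 12393 named on the array. All 10 were on it, as 12 of its 22626 probe sets other than controls, with 1 symbol each in the platform annotation. Total lung RNA was hybridised to Affymetrix Mouse 430A arrays, with 3 for ob/ob females of strain B6.V-Lepob/J given leptin and 3 for ob/ob females given saline, all about 1 month old. Each label gives 1 animal and 1 tissue per array. Both groups carry the Lep mutation and therefore lack functional leptin of their own. Dose, route, duration of treatment and the interval between the last injection and tissue collection were not given in the sources used here. Intensity is a scanner brightness per probe set on a linear scale, so differences are taken between arrays for the same probe set. Percentiles and the words bright and dim refer to brightness, not to amounts of RNA compared between genes. Sums over markers weigh the brightest marker most.

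Immediate early genes are transcribed within minutes of a stimulus from factors already present in the cell, and their messenger RNAs are short-lived. Growth factor signalling through RAS and ERK reaches them by way of the serum response factor and its ternary complex partners, and cyclic AMP and stress signals by way of CREB and related proteins. Their products include the zinc finger EGR proteins, the FOS and JUN proteins that pair to form AP-1, the stress-induced factor ATF3 and the orphan nuclear receptor NR4A1. In lung they are known to respond to stretch, growth factors, oxidants and the handling of tissue.

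Promoter sequence is shown for Nr4a1 and Atf3, the members with the smallest p among those with higher values in leptin-treated lungs, and for Fos, the best known gene of the class. Each stretch runs from 250 bases before the RefSeq start site up to that site (RefSeq, GRCm38.p6). The capitals mark the 5-letter core of the cyclic AMP response element, CGTCA, or TGACG where it lies on the other strand. The stretches are chr15:101266596-101266845 (plus strand) for Nr4a1, chr1:191183334-191183583 (minus strand) for Atf3 and chr12:85473640-85473889 (plus strand) for Fos.
Nr4a1: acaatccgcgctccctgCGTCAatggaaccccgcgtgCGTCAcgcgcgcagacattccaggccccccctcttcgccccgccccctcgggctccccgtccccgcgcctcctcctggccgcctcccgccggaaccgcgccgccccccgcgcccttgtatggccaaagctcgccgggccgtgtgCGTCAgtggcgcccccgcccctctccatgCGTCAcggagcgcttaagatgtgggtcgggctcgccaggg
Atf3: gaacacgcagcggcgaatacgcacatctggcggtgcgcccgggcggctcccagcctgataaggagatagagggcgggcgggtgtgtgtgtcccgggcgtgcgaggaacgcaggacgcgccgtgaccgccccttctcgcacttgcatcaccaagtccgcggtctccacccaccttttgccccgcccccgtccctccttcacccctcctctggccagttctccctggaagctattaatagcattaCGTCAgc
Fos: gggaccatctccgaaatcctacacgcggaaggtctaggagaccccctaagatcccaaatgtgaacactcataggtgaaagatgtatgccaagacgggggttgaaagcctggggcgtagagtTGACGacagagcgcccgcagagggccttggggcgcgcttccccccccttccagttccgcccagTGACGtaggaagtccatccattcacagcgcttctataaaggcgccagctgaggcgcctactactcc
The core occurred 4 times in the Nr4a1 stretch, once in that of Atf3 and at 2 places in that of Fos. Of the 10 genes, 7 had an entry in the promoter table (not Egr1, Egr3 and Ier2), and 6 of these held the core on either strand, Jun being the exception. Over the table, 17.8% of 32851 windows of this length held it. Counted by window, 8 of the 11 windows of member genes did, of which Egr2 has 5 windows in all. The Egr2 windows that start at 67537619, 67537620 and 67537680 overlap, so the same letters are counted in each. The complete palindrome TGACGTCA was in 0 of the 7 member genes, against 1.55% of all windows. The AP-1 motif TGANTCA was also in 0, against 6.75%. A CArG box, the motif bound by serum response factor, was in Egr2 alone (4 of the 11 member windows), against 1.47% of all windows. The overlapping Egr2 windows share the same box. The EGR motif GCGNGGGCG was in Fosb and Nr4a1 (2 of the 11), against 4.7%. No motif search here overlaps another except that TGACGTCA contains the core. A match describes letters in a window and is not a measured binding site.

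The array of saline replicate 1 stood apart and is therefore kept separate in the comparisons of leptin with saline. Its log2 values correlated at 0.438 to 0.447 with those of the other 5 arrays (Pearson's r over probe sets, not independent of each other), which correlated with each other at 0.973 to 0.978. Of all tested probe sets, 44.1% read above and 45.6% below the whole range of the other 5 arrays on it. Its spiked-in controls stood at a median of 22.6 times their level on the other arrays, and the 3' beta-actin probe set read 1643 there, against 18527 to 19541 elsewhere. Of the 12 immediate early probe sets, 4 read above, 5 below and 3 within the range of the other 5 arrays on saline replicate 1. Lung identity was plain on the other 5 arrays, where Sftpc, the surfactant protein of alveolar type II cells, read 23964 to 29732, Ager of type I cells 8443 to 11743 and Scgb1a1 of club cells 18473 to 22288. On saline replicate 1 the 5 type II markers summed to 10281, against 69104 to 78876 on the others. The 3 club cell markers went the other way, with a sum of 90108 there, against 57448 to 64840. Both sets still ranked high on that array, at median percentiles of 96.4 for type II and 99.5 for club cell markers. The median percentile of the 4 smooth muscle markers was 30.8 there, against 82.0 to 87.8 on the others.

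No immediate early probe set passed the threshold for leptin against saline. Of the 12, 9 were bright enough to test on all 6 arrays and 10 without saline replicate 1. With limma and Benjamini-Hochberg adjustment, 0 of 9 passed an adjusted p of 0.05 on all 6 arrays, where 0.0% of all probe sets did, and 0 of 10 without saline replicate 1, where 0.0442% did. At an unadjusted p under 0.05, all 6 arrays gave Nr4a1 as higher and Egr3 as lower, against 0.202% and 0.183% of all probe sets in those directions. With the replicate number as a block, this p was reached by Egr3 alone. Leaving out saline replicate 1, the same p gave Nr4a1 and Atf3 as higher and Egr3 as lower, against 2.61% and 1.98%. The rule stated by the series (at least 1.5-fold, p under 0.05 and 6 of 9 pairwise comparisons) was met by 0 of them, against 0.202% of all probe sets, and its version without saline replicate 1 by 0, against 0.492%. The labels name separate animals, so these p-values rest on 6 samples or fewer. Limma also draws each variance towards that of the other probe sets tested. The pooled-variance 2-sample test uses only a probe set's own spread. Without saline replicate 1 its unadjusted p was 0.064 for Egr3, 0.077 for Nr4a1 and 0.155 for Atf3. On all 6 arrays the same test gave 0.090, 0.063 and 0.301.

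**Figure D1:**
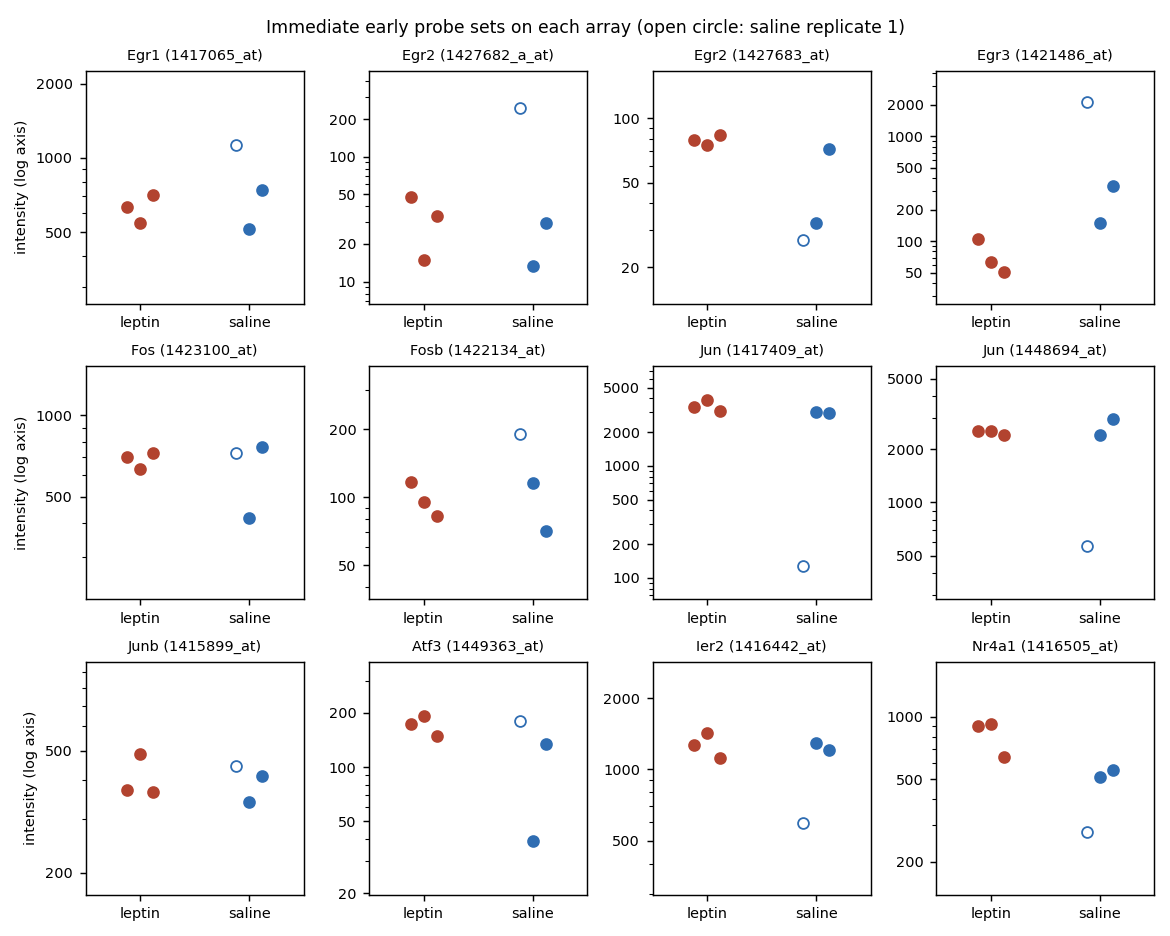
Intensity (log axis, one panel per probe set) on each array, with leptin-treated lungs on the left and saline-treated lungs on the right of each panel and saline replicate 1 as an open circle. Egr3 reads 50.9 to 104.3 with leptin and 150.0 to 2115.6 with saline, Nr4a1 reads higher on every leptin array than on any saline array, and both Jun panels show saline replicate 1 far below the rest.

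Among the EGR zinc finger factors, Egr3 read low in leptin-treated lungs, while Egr1 barely differed between groups. Egr3, known for its part in muscle spindle development and in T cell anergy, read 104.3, 62.9 and 50.9 in leptin-treated lungs, against 150.0 and 335.2 on saline replicates 2 and 3 and 2115.6 on saline replicate 1. Every leptin array was below every saline array, and the 3 saline arrays spread more widely than the 3 leptin arrays. The log2 difference was taken as leptin minus saline on log2(intensity + 22.0), with the SE from limma here and below. For Egr3 it was -1.43 ± 0.35 without saline replicate 1 (SE, n = 3 and 2; limma adjusted p = 0.526), a 2.69-fold lower value. With all 6 arrays it was -2.46 ± 0.91 (n = 3 per group; limma adjusted p = 0.715). By size it was number 5 of the probe sets with lower values without saline replicate 1 and number 2 with all 6 arrays. Egr3 passed the filter on dim probe sets only through the saline group, so a lower value with leptin was the direction it could show best. On leptin arrays it lay at the 20.1 to 30.2 percentile of all probe sets, against 39.6, 60.2 and 96.1 on saline replicates 2, 3 and 1.

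Egr1, which responds to growth factors, hypoxia and mechanical stretch, read 631.8, 544.1 and 709.0 in leptin-treated lungs, against 513.0 and 738.0 on saline replicates 2 and 3 and 1129.5 on saline replicate 1. The leptin values lay inside the range of those 2 saline arrays. Its log2 difference was 0.02 ± 0.19 without saline replicate 1 (SE; limma adjusted p = 1.00), with a 95% interval from 0.763-fold to 1.35-fold. With saline replicate 1 the sign was negative, at -0.26 ± 0.34 on all 6 arrays (limma adjusted p = 0.725).

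Egr2, known from hindbrain patterning and myelination, fell below the filter on both of its probe sets and was not tested. The probe set 1427683_at read 79.1, 74.9 and 83.8 with leptin, against 32.3 and 72.2 on saline replicates 2 and 3 and 27.0 on saline replicate 1. Its groups did not overlap, and saline replicate 3 was close to the lowest leptin array. The second, 1427682_a_at, read 47.3, 15.0 and 33.8 with leptin, against 13.3 and 29.4 on saline replicates 2 and 3, which overlapped, and 244.2 on saline replicate 1. On that array the 2 probe sets of Egr2 thus went opposite ways.

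The AP-1 genes showed little difference on the 5 arrays that resembled each other. Fos, the partner that needs a JUN protein to bind DNA, read 700.4, 632.8 and 724.6 in leptin-treated lungs, against 417.4 and 761.3 on saline replicates 2 and 3 and 725.1 on saline replicate 1. Only saline replicate 2 was apart from the other 5 values. Its log2 difference was 0.27 ± 0.22 without saline replicate 1 (SE; limma adjusted p = 1.00; 95% interval 0.862-fold to 1.68-fold) and 0.15 ± 0.30 on all 6 arrays. Without saline replicate 2 as well, the value turned to -0.15, and without saline replicate 3 in its place it was 0.69. Fosb, a relative of Fos that also pairs with JUN proteins, was dim, at 117.4, 95.5 and 82.3 with leptin, against 116.0 and 70.8 on saline replicates 2 and 3 and 190.5 on saline replicate 1. It was tested only without saline replicate 1, at 0.08 ± 0.29 (95% interval 0.678-fold to 1.65-fold), after passing the filter through the leptin group.

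Jun, the founding JUN protein, was bright on 5 arrays, at or above the 94.5 percentile on both of its probe sets. The probe set 1448694_at read 2550.0, 2527.1 and 2392.3 with leptin, against 2411.5 and 2947.6 on saline replicates 2 and 3 and 567.0 on saline replicate 1. The probe set 1417409_at read 3375.2, 3887.1 and 3101.1 with leptin, against 3019.1 and 2988.6 on saline replicates 2 and 3 and 128.7 on saline replicate 1. On these 5 arrays the groups overlapped for the first and not for the second, where leptin replicate 3 and saline replicate 2 were close together. The log2 differences without saline replicate 1 were -0.10 ± 0.13 and 0.19 ± 0.13 (SE; limma adjusted p = 1.00 for both), so the 2 probe sets had opposite signs. On all 6 arrays they were 0.63 ± 0.63 and 1.64 ± 1.17 (limma adjusted p = 0.715 for both), since saline replicate 1 stood at 0.224 and 0.0415 times the median of the others. Junb, which can oppose Jun at AP-1 sites, read 371.1, 487.1 and 367.0 with leptin, against 338.8 and 412.5 on saline replicates 2 and 3. It read 446.0 on saline replicate 1, within the range of the others, and its log2 difference was 0.11 ± 0.18 without that array and 0.03 ± 0.26 with it.

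**Figure D2:**
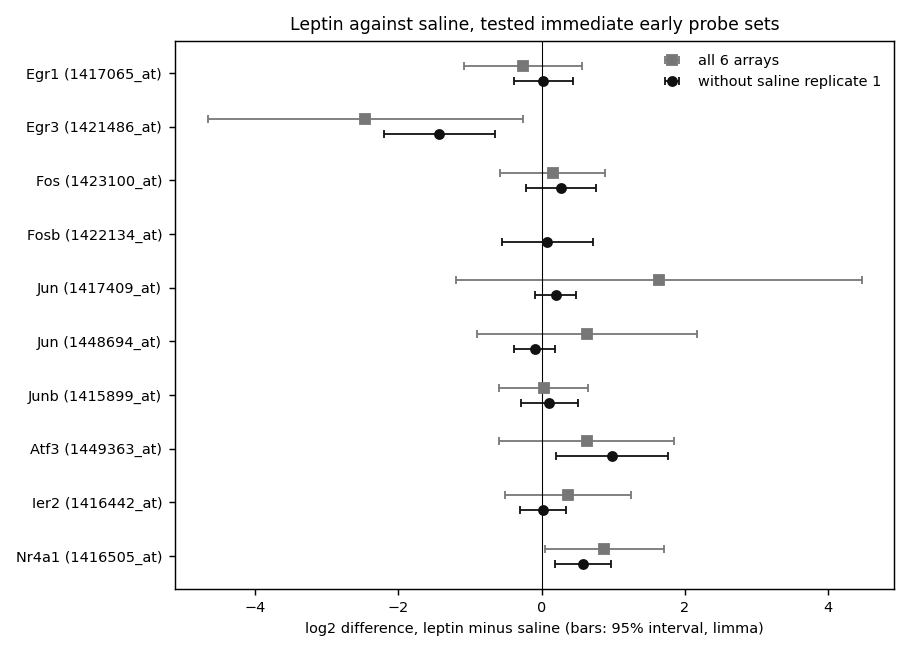
Log2 difference, leptin minus saline, of the tested immediate early probe sets on all 6 arrays (grey squares) and without saline replicate 1 (black circles), with 95% intervals from limma. Without saline replicate 1 the intervals of Egr3, Atf3 and Nr4a1 leave out 0, as those of Egr3 and Nr4a1 do on all 6 arrays, before any adjustment for the number of probe sets tested.

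Nr4a1, also called Nur77, read higher on every leptin array than on any saline array. Jun 1417409_at and the dim, untested Egr2 1427683_at did so as well. Nr4a1 read 896.5, 920.1 and 637.9 in leptin-treated lungs, against 514.5 and 555.2 on saline replicates 2 and 3 and 277.0 on saline replicate 1. The lowest leptin array, replicate 3, was closer to saline replicates 2 and 3 than to the other 2 leptin arrays. Means were 818 ± 157 with leptin (SD, n = 3), against 535 ± 28.8 on saline replicates 2 and 3 (SD, n = 2) and 449 ± 150 over all 3 saline arrays. The log2 difference was 0.58 ± 0.18 without saline replicate 1 (SE; limma adjusted p = 0.924), a 1.49-fold higher value with a 95% interval from 1.13-fold to 1.96-fold. On all 6 arrays it was 0.87 ± 0.35 (limma adjusted p = 0.715). Of the pairwise comparisons, 7 of 9 were at or above 1.5-fold, or 4 of 6 without saline replicate 1. Both groups lay above the filter, unlike those of Egr3 and Atf3, and by p it was number 143 of 15838 probe sets without saline replicate 1.

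Atf3, a stress-induced member of the CREB and ATF family that mostly represses its targets, read 172.6, 192.5 and 148.6 with leptin, against 39.2 and 133.7 on saline replicates 2 and 3. Saline replicate 1 read 179.7, inside the leptin range, so the groups overlapped with it and not without it. The log2 difference was 0.98 ± 0.35 without saline replicate 1 (SE; limma adjusted p = 1.00) and 0.63 ± 0.51 on all 6 arrays (limma adjusted p = 0.715). It rested on saline replicate 2, without which it was 0.31, against 1.65 without saline replicate 3, and Atf3 passed the filter only through the leptin group. Ier2, a nuclear protein of the early response, read 1268.8, 1422.9 and 1115.7 with leptin, against 1290.0 and 1209.3 on saline replicates 2 and 3 and 592.8 on saline replicate 1. Apart from that array the saline values lay inside the leptin range, with a log2 difference of 0.02 ± 0.14 (95% interval 0.811-fold to 1.26-fold), against 0.37 ± 0.37 with it.

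The members did not move as a block. On the 5 other arrays, 8 of the 10 tested probe sets had a positive and 2 a negative log2 difference, with a median of 0.09, against 0.00 over all 15838 probe sets, of which 50.3% were positive. On all 6 arrays 7 of 9 were positive with a median of 0.37, against 0.02 and 51.3%. Of these tested probe sets, 3 had higher values on every leptin array than on saline replicates 2 and 3 (Jun 1417409_at, Atf3 and Nr4a1) and 1 lower (Egr3), where 9.92% and 9.66% of all probe sets did so. With all 6 arrays these were 2 higher (Jun 1417409_at and Nr4a1) and 1 lower (Egr3), against 5.0% and 4.1%. The members tested include 3 that passed the filter through 1 group, so these counts describe the values and support nothing.

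Values also differed between animals of 1 group. Taking for each of the 9 genes tested its brightest probe set on the 5 arrays, leptin replicate 2 held the highest value of 5 genes (Jun, Junb, Atf3, Ier2 and Nr4a1) and saline replicate 2 the lowest value of 5 (Egr1, Fos, Junb, Atf3 and Nr4a1). Saline replicate 3 was highest for Egr1, Egr3 and Fos. The range over the 5 arrays, on the log2 scale, was 0.34 for Ier2 and 0.38 for Jun, against 1.81 for Atf3 and 2.29 for Egr3. The mean of the members' centred log2 values was 0.12, 0.09 and -0.10 on leptin replicates 1, 2 and 3, against -0.25 and 0.14 on saline replicates 2 and 3, so the groups overlapped.

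**Figure D3:**
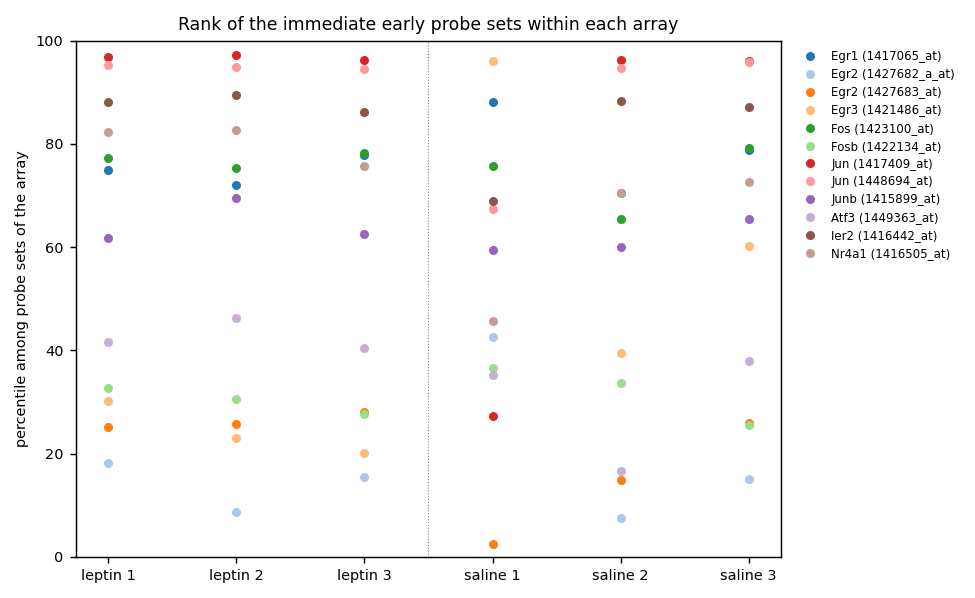
Percentile of each immediate early probe set among all probe sets of the same array, with the 3 leptin arrays left of the dotted line and the 3 saline arrays right of it. Jun stays at or above the 94.5 percentile on 5 arrays, and on saline replicate 1 Egr3 stands at the 96.1 percentile and Jun 1417409_at at the 27.2 percentile.

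The probe sets with the most similar profile to that mean over the 5 arrays were of Emc10, Eif4g3, Arhgap8, Ptpmt1, Selenoh, Dsn1, Sema3f and Chmp3. Likeness was the root mean square distance of centred log2 values, which was 0.023 to 0.029 for these 8 and 0.226 at the median of 14548 probe sets. The nearest member, Junb, was at 0.132, and 1259 other probe sets were nearer than Junb. None of the 8 is in the list of early response genes used here.

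Other early response genes were examined from a list of 52, of which 49 were on the array, which holds further AP-1 and NR4A genes, MAP kinase phosphatases and feedback inhibitors. Of the 43 tested without saline replicate 1, 2 had higher and 4 lower values at an unadjusted p under 0.05, where 4.6% of all probe sets reached this p in either direction, and 0 passed the adjusted threshold. Their median log2 difference was 0.03, against 0.00 over all probe sets. Dusp1, the phosphatase that switches off MAP kinases, read 3339.4, 2992.8 and 3293.0 in leptin-treated lungs, against 4417.0 and 5354.6 on saline replicates 2 and 3. The groups stood clear of each other, with the log2 difference at -0.60 ± 0.13 (SE; limma adjusted p = 0.321). Saline replicate 1 read 1826.7, below all of them, and with it the value was -0.13. Nfkbia, the inhibitor of NF-kappaB, read 11313.3, 10726.4 and 11666.6 with leptin, against 13945.1 and 14103.8 on saline replicates 2 and 3, at -0.32 ± 0.10 (limma adjusted p = 0.924). Its 3 other probe sets were at -0.34, -0.59 and -0.31, all of 1 sign without saline replicate 1. That array read 63657.2 on the brightest, and with it the 4 probe sets had both signs, from -1.05 to 0.55.

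Per1, a clock gene also induced as an early response, was at -0.38 ± 0.15 (SE) and Klf2, the flow-responsive factor of endothelium, at -0.35 ± 0.15. Each leaned on 1 saline array, with Per1 at -0.18 without saline replicate 2 and Klf2 at -0.10 without saline replicate 3. Saline replicate 1 read 696.5 for Per1 and 463.0 for Klf2, and on all 6 arrays both signs turned, to 0.09 and 0.68. Klf10, an early target of TGF-beta, was at 0.40 ± 0.14, with 883.0, 990.0 and 1031.1 in leptin-treated lungs against 723.8 and 733.3 on saline replicates 2 and 3 and 72.2 on saline replicate 1. Socs3, the feedback inhibitor induced by the leptin receptor through STAT3, was named after its values were seen. It read 590.3, 391.4 and 253.1 with leptin, against 302.0 and 161.1 on saline replicates 2 and 3 and 1796.5 on saline replicate 1. Its groups overlapped, and its log2 difference was 0.76 ± 0.32, against -0.21 on all 6 arrays. The other probe sets of Socs3 were lower, at 0.26 and 0.61 without saline replicate 1. With that array its probe sets had both signs. Limma's adjusted p was 1.00 for these 4 genes. On all 6 arrays 0 of 44 list members were at an unadjusted p under 0.05, against 0.385% of all probe sets.

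The pathway that induces immediate early genes was examined from a list of 38 genes, of which 27 were on the array. The list holds serum response factor, its partners, CREB proteins, RAS, RAF and the MAP kinases. Of 26 tested without saline replicate 1, 0 had higher and 1 lower values at an unadjusted p under 0.05, where 2.61% and 1.98% of all probe sets did. The median log2 difference was 0.07, and 0 passed the adjusted threshold. With saline replicate 1 included, 0 of 26 reached the unadjusted p. The 1 was Grb2, the adaptor between receptors and RAS, at -0.46 ± 0.20 (SE; limma adjusted p = 1.00). It read 690.8, 439.1 and 665.9 with leptin, against 763.7 and 872.9 on saline replicates 2 and 3, and its second probe set was at 0.08. Without leptin replicate 2 its value was -0.26.

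Heat shock genes, which like Atf3 answer to cell stress, mostly had positive differences without saline replicate 1, though 0 of 9 passed the adjusted threshold with or without it. Of 9 tested without saline replicate 1, 6 had higher values at an unadjusted p under 0.05 (Hsph1, Dnajb1, Hspa1a, Hspa1b, Hspa8 and Hsp90aa1), where 2.61% of all probe sets did. Their median log2 difference was 0.33. With saline replicate 1 included, 2 of 9 were at this p (Hsph1 and Dnajb1), against 0.202% of all probe sets. Like the other lists, this one was chosen with earlier results of these data known, so its counts describe the values and support nothing. Hsph1, a co-chaperone of the HSP70 family, read 646.3, 983.3 and 735.7 with leptin, against 366.5 and 453.7 on saline replicates 2 and 3, and 94.2 on saline replicate 1, at 0.89 ± 0.19 without that array (limma adjusted p = 0.327). Leptin replicate 2 held the highest value here too, as it did for Atf3 and Nr4a1. Dnajb1 was at 0.56 ± 0.15, Hspa1a at 0.58 ± 0.21 and Hspa1b at 0.58 ± 0.19, and the last 2 are near-identical genes that probe sets may not tell apart. The second probe set of Dnajb1 was at 0.18, and the others of Hsp90aa1 were at 0.27 and 0.02. Those of Hsph1, Hspa1b and Hspa8 lay from 0.37 to 0.83. With saline replicate 1, which read 38709.0 for Hspa8 and 615.7 for Hspa1a, the value of Hspa8 turned to -0.59 and that of Hspa1a was 0.15.

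**Figure D4:**
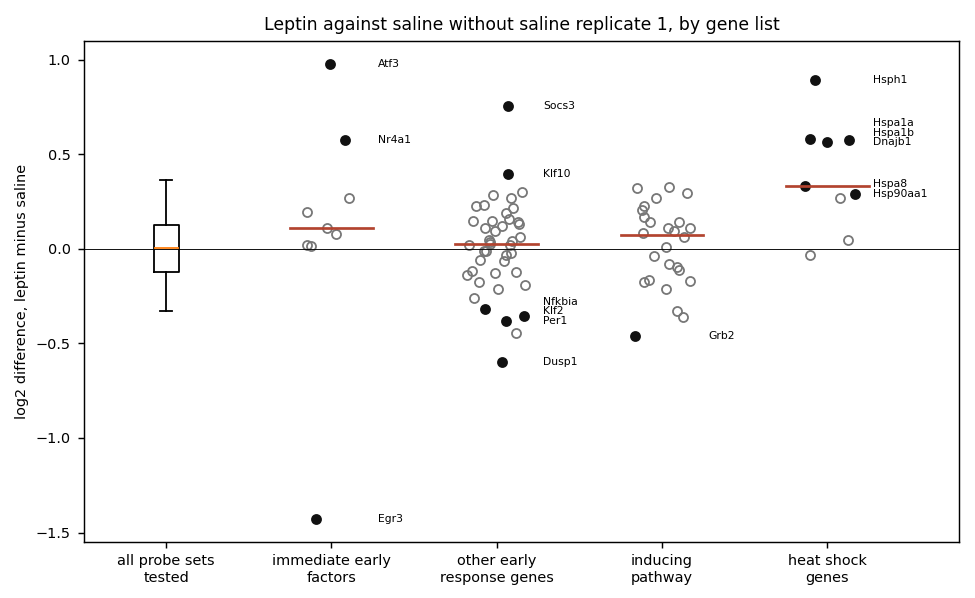
Log2 difference, leptin minus saline, without saline replicate 1 for the brightest tested probe set of each gene, by gene list. Filled points with names are at an unadjusted limma p under 0.05, red lines are list medians, and the box gives the median and quartiles of all probe sets with whiskers at the 5th and 95th percentiles. The immediate early factors have a median of 0.11 over 9 genes, with Egr3 at -1.43 and Atf3 at 0.98.

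In whole lung, fewer cells of a type and less RNA per cell cannot be told apart. Some cell type markers differed between the same 5 arrays. The 4 smooth muscle markers all read higher on every leptin array than on saline replicates 2 and 3, with a summed intensity of 8124 to 9649 with leptin, against 7265 and 7302, where 9.92% of all probe sets were higher without overlap and 9.66% lower. Of 5 fibroblast markers 3 did so, with sums of 21349 to 22452 against 15340 and 17052. The 4 red cell markers summed to 3415 to 4651 with leptin, against 8077 and 10125, with 2 lower and 1 higher without overlap. The 3 T cell markers summed to 354 to 490 with leptin, against 203 and 321, with 1 higher. In the lung epithelium 1 of 5 type II, 2 of 5 type I and 2 of 3 club cell markers were lower without overlap and 0 higher. No defining marker was at 0 on these arrays. The part of these cells in the values of Egr3, Nr4a1 and Atf3 was not tested.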

How the data were processed

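Lung RNA of 6 ob/ob mice was measured on Affymetrix Mouse 430A arrays. The deposited values are linear intensity values per probe set, 1 column per array. How these were summarised was not given in the sources used here. With 2% of probe sets trimmed at each end, the mean lies near 500 on each array, so the arrays had been scaled to a common mean, which raises all values of an array with little signal. The number of arrays limits the precision.

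Values were turned into log2(intensity + 22.0), the 10th percentile of all values, on which differences of dim probe sets are understated. The 64 control probe sets were left out, then the dimmest 30% by mean. The other 15838 probe sets went into limma 3.58.1 (R 4.3.3; lmFit, eBayes with a trend, two-sided, Benjamini-Hochberg over all), checked on simulated data. The series' own rule was applied with a 2-sample test with pooled variance, since it names none. Genes come from the platform annotation (20380 probe sets with 1 symbol), unchanged for all members by Entrez Gene ID in RefSeq (GRCm38.p6). For a list gene with several tested probe sets the brightest stands.

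The members and lists were chosen with earlier results of these data known. Every member probe set is named. List genes are named at an unadjusted p under 0.05 without overlap (up to 8 per list), with Socs3 added. For cell types, sums and the first marker stand. Alternatives were other normalizations, pseudocounts and filters, the replicate number as a block, no trend, array weights and leaving out each array.

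The labels do not say that numbers pair animals. Same-numbered arrays deviated together from their group means, at correlations of 0.144, 0.108 and 0.103 across probe sets, against -0.147 to 0.0491 for other pairs. All 3 were over 0.1. Saline replicate 1 was among these arrays, and deviations within a group cancel out, so these correlations are not independent of each other. They cannot decide whether the numbers mark pairs.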

Additional observations from a re-analysis of the deposited data

How the results depend on the processing

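Under every alternative tried, 0 immediate early probe sets passed the adjusted threshold, on all 6 arrays and without saline replicate 1. Nr4a1 and Atf3 kept a positive and Egr3 a negative log2 difference under all alternatives in which they were tested. Without saline replicate 1, Nr4a1 ranged from 0.48 to 0.74 over 14 alternatives (limma adjusted p from 0.296 to 1.00), Atf3 from 0.31 to 1.65 over 13 and Egr3 from -1.96 to -1.03 over 12 (from 0.187 to 0.864). Egr3 dropped below the filter without saline replicate 3, since it is dim on the leptin arrays, and with a filter at 50%.

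On all 6 arrays the count at an unadjusted p under 0.05 was 1 with quantile normalization, 1 with a common median, 1 with a filter at 50% and 1 with the replicate block, against 2 in the main result. It ranged from 0 to 3 with an array left out, with 0 without leptin replicate 1, 2 or 3. Without saline replicate 1 it was 1 with a filter at 50%, against 3. The replicate block changed no other call of a member. The series' rule was met by 0 to 1 member with an array left out of all 6 (1 without saline replicate 2), and without saline replicate 1 by 1 without leptin replicate 3 and 2 without saline replicate 3, against 0. The median over members on all 6 arrays was 0.15 with array weights and ranged from 0.094 to 0.45 with an array left out. Without saline replicate 1 it was -0.025 without saline replicate 2 and 0.24 without saline replicate 3.

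Signs turned for members near 0. On all 6 arrays Egr1 turned to 0.056 and Jun 1448694_at to -0.058 with array weights. With an array left out, Egr1 ranged from -0.53 to 0.020 and Jun 1448694_at from -0.098 to 1.07, both turning without saline replicate 1. Fos ranged from -0.11 to 0.30, turning without saline replicate 2, and Junb from -0.098 to 0.11, turning without leptin replicate 2 or saline replicate 2. Without saline replicate 1, Fosb turned to -0.032 with the replicate block. A further array left out gave Fosb from -0.21 (without saline replicate 3) to 0.18, Egr1 from -0.23 (without saline replicate 2, also turning without leptin replicate 3) to 0.27, Fos from -0.15 (without saline replicate 2) to 0.69 and Jun 1448694_at from -0.24 to 0.045 (without saline replicate 3). Ier2 ranged from -0.069 to 0.10, turning without leptin replicate 2 or saline replicate 3, and Junb from -0.025 to 0.24, turning without leptin replicate 2 or saline replicate 2.

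Of all probe sets, 8 passed with array weights on 6 arrays and 0 to 7 with an array left out, against 0. Without saline replicate 1, 0 passed without a trend, with the replicate block, without a filter, with a pseudocount of 1, with a common median or with quantile normalization, and 0 to 3 with a further array left out, against 7. Other early response genes at an unadjusted p under 0.05 numbered 2 without a trend and 3 to 5 with an array left out, against 6. Inducing pathway genes numbered 0 without a filter, 0 without a trend, 2 with the replicate block and 0 to 2 with an array left out, against 1. The causes were not tested. Signal over background limits Egr2, Fosb, Egr3 and Atf3.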
